A study of Mus musculus with 12 samples.

Results

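Amino acids reach the hepatocyte from the portal blood through solute carriers (Slc genes), and 10 genes of this class were followed in livers of mice with a point mutation of the nuclear receptor LRH-1. They were taken by gene symbol from the platform annotation: Slc38a1, Slc38a2, Slc38a3, Slc38a4, Slc7a2, Slc7a5, Slc7a11, Slc3a2, Slc43a1 and Slc1a4. All 10 were found among the 19938 genes on the array. Livers came from 6 wild-type (WT) males and 6 males carrying the LRH-1 K289R knock-in, in which an arginine replaces a lysine of the receptor. Both groups were on the C57BL/6J background, and every mouse was fasted for 24 h and then refed for 6 h. The labels state neither the ages nor whether knock-in mice carried 1 or 2 mutant alleles. Each mouse gave 1 Affymetrix array of total liver RNA, so the replicates are separate animals. The question put to these genes is whether the mutation goes with another transcript level after refeeding.

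Sodium-coupled system A carriers (Slc38a1, Slc38a2, Slc38a4) take up small neutral amino acids such as alanine, and the system N carrier Slc38a3 moves glutamine, histidine and asparagine. Large neutral amino acids pass through Slc7a5, which works as a dimer with the heavy chain Slc3a2, and through Slc43a1. Slc7a2 carries arginine, lysine and ornithine, Slc7a11 exchanges cystine for glutamate with the same heavy chain, and Slc1a4 exchanges alanine, serine, cysteine and threonine. Several of these genes are known targets of ATF4, the transcription factor of the amino acid deprivation response, and Slc38a4 is imprinted in mice.

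Each gene's value is the linear intensity of 1 probe set, and tests were run on its log2. Array medians ran from 26.8 to 29.2. The hepatocyte markers were bright on every array, with Alb at 6644 to 7982 and Cps1 at 3986 to 4684. Some arrays stood apart. Skeletal muscle transcripts (17 genes) averaged 7.0 on the log2 scale on WT 1 and 5.69 on K289R 3, against 4.4 to 4.75 on the 10 other arrays. Pancreatic acinar transcripts (20 genes) averaged 8.12 on K289R 1 and 8.52 on K289R 3, against 4.09 to 4.4 elsewhere. Acute phase genes (19 genes) averaged 9.96 on WT 1 and 10.12 on WT 3, against 8.56 to 9.23 elsewhere. None of these 3 lists had a member that passed the genotype test. Macrophage, endothelial, stellate, cholangiocyte, lymphocyte and neutrophil lists, 6 in all, had overlapping ranges in the genotypes. In whole liver, fewer cells of a type and less RNA per cell cannot be told apart.

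No transporter of the 10 passed the test of K289R against WT (limma, Benjamini-Hochberg adjusted p under 0.05 over all genes), where 0.572% of all genes passed (0.481% higher and 0.0903% lower in K289R). With an unadjusted p under 0.05, 2 of the 10 were higher in K289R, beside 6.42% of all genes, and none was lower, beside 5.61%. These were Slc1a4 (log2 difference 0.37) and Slc38a2 (0.36). The other 8 had differences from -0.13 to 0.23. Of the 10, 5 had a positive difference (46.0% of all genes), and the median of 0.013 lay beside -0.012 for all genes tested. Neither median had a stable sign: with equal array medians they were 0.050 and 0.026, and without 1 array that of the transporters ran from -0.016 (without WT 3) to 0.058 (without WT 5). In no case were the arrays of the genotypes fully separated, which was so for 1.24% of all genes. Without WT 1, 1 of the 10 passed, Slc38a2, where 0.597% of all genes passed (0.466% with the higher level in K289R).

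**Figure D1:**
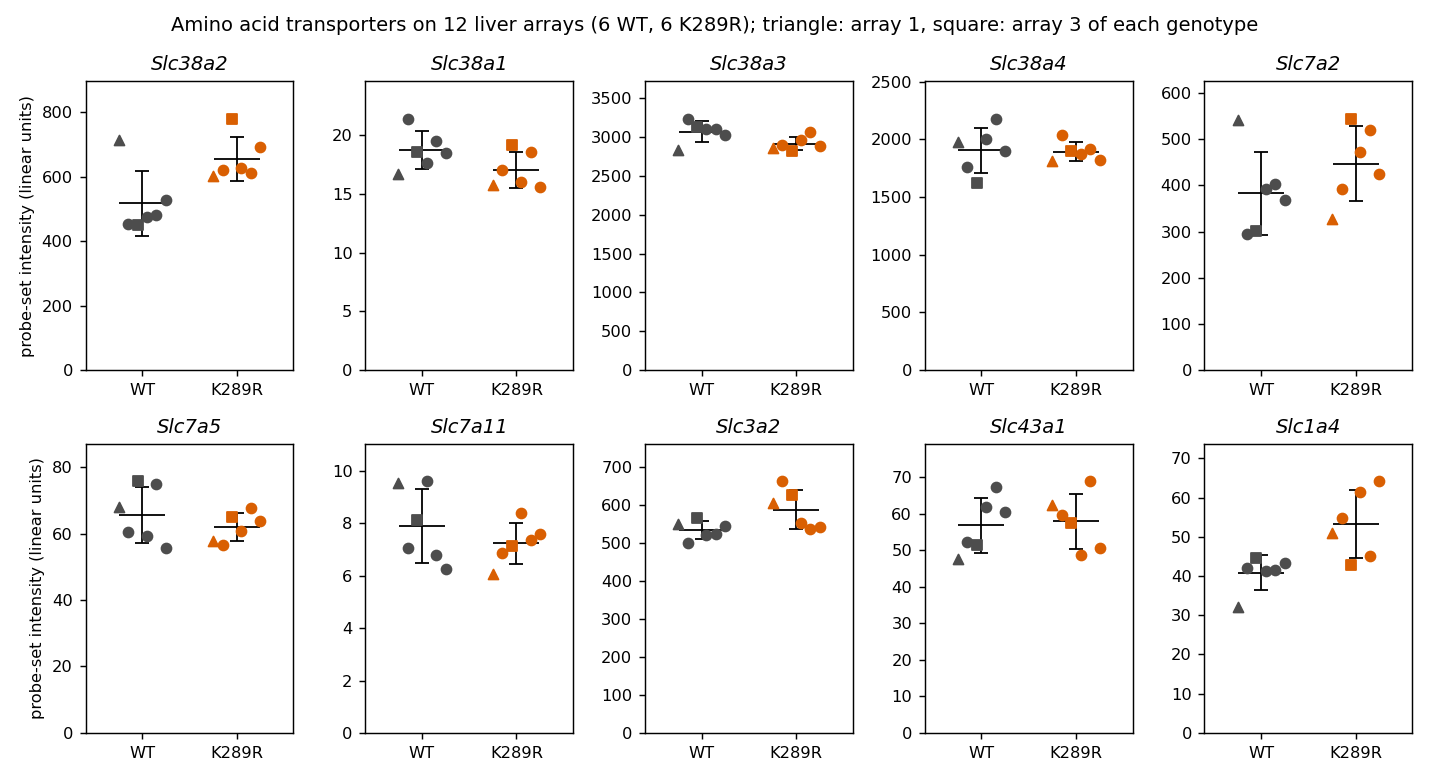
Probe-set intensity (linear units, from 0) of the 10 transporters on 6 WT and 6 K289R arrays, with 1 point per mouse and the mean ± SD of each group. Triangles and squares mark arrays 1 and 3 of each genotype. For Slc38a2, WT 1 at 714 lies among the K289R values while the other WT arrays lie at 449 to 528.

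Slc38a2 is the system A carrier that cells induce when amino acids are scarce. In WT its intensity was 714 on WT 1, 453 on WT 2, 449 on WT 3, 474 on WT 4, 482 on WT 5 and 528 on WT 6. In K289R it was 603, 620, 779, 626, 611 and 691 on arrays 1 to 6. All 6 K289R arrays thus lay above 5 of the 6 WT arrays, and WT 1 lay above 5 of the 6 K289R arrays. WT averaged 517 ± 101 and K289R 655 ± 68.4 (SD, n = 6 each), a 1.28-fold difference (95% confidence interval, CI, 1.1 to 1.5; unadjusted p = 0.00396, adjusted p = 0.174). Its fold interval lay above 1, but the adjusted p did not pass.

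The Slc38a2 result turned on 1 array. Without WT 1 the log2 difference was 0.45 and passed (adjusted p = 0.0134). With WT 1 and WT 3 both left out it was 0.43 (adjusted p = 0.0422), the 1 transporter that passed where 0.441% of all genes did (0.351% higher in K289R). Leaving out WT 1 and K289R 3, the arrays with the most muscle transcript, gave 0.40 (adjusted p = 0.0239), again the 1 transporter that passed where 0.441% of all genes did (0.356% higher in K289R). On values centred on genotype means, both were also the arrays farthest from the median for Slc38a2 itself. Their removal therefore narrows its spread, and the lower p is not independent evidence. When all 4 arrays that stood apart were removed, it was 0.40 with an adjusted p = 0.0972. Leaving out K289R 1 and 3 alone gave 0.32 (adjusted p = 0.430). Over all 25 alternative fits the Slc38a2 difference was positive, and it passed in 3.

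Slc1a4, an exchanger of alanine, serine, cysteine and threonine, had the smallest p of the 10. WT arrays 1 to 6 measured 32.1, 42.1, 44.7, 41.2, 41.6 and 43.4, and K289R arrays 1 to 6 measured 51.0, 54.8, 42.9, 61.5, 45 and 64.1. Of the K289R arrays, 5 lay above every WT array, and K289R 3 lay inside the WT range. WT averaged 40.9 ± 4.49 and K289R 53.2 ± 8.58 (SD, n = 6 each), a 1.30-fold difference (95% CI 1.11 to 1.51; unadjusted p = 0.00282, adjusted p = 0.151). WT 1 and K289R 3, the highest arrays of their groups for Slc38a2, were the lowest of their groups for Slc1a4. Slc1a4 did not pass in any of the 25 alternative fits (adjusted p 0.0795 to 0.316), and its difference was positive in all 25.

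**Figure D2:**
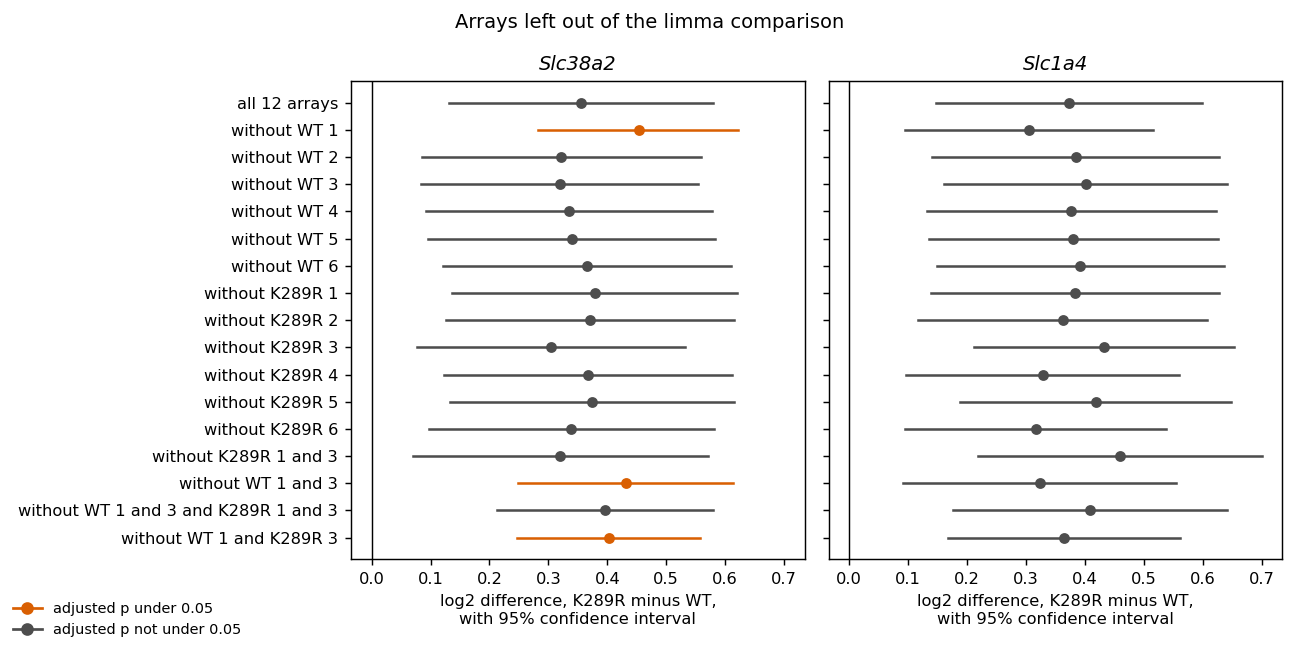
Log2 difference of K289R minus WT with its 95% confidence interval for Slc38a2 and Slc1a4, with all 12 arrays and with the arrays named at the left removed. Orange marks an adjusted p under 0.05, reached for Slc38a2 without WT 1, without WT 1 and 3, and without WT 1 and K289R 3.

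The bases upstream of both genes are shown because they carry the largest differences, beside Slc7a11 and asparagine synthetase (Asns), a textbook ATF4 target that rose in K289R. Sequences are the 250 bases before the annotated start in RefSeq (build GRCm38.p6), 5′ to 3′ on the gene's strand, which is the minus strand for all 4. Capitals mark TGATGNAA, the core of the amino acid response element bound by ATF4, on either strand. Slc38a2 lies at chr15:96699729-96699978, Slc1a4 at chr11:20332714-20332963, Slc7a11 at chr3:50443614-50443863 and Asns at chr6:7693210-7693459.
Slc38a2: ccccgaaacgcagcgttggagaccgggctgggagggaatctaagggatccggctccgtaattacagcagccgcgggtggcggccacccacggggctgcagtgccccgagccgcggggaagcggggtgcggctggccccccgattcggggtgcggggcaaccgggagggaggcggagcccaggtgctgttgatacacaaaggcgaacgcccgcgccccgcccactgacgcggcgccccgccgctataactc
Slc1a4: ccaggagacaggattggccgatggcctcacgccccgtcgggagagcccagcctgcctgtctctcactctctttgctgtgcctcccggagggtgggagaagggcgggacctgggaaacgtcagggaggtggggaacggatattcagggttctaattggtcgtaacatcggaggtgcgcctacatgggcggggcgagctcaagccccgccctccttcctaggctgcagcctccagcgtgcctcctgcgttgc
Slc7a11: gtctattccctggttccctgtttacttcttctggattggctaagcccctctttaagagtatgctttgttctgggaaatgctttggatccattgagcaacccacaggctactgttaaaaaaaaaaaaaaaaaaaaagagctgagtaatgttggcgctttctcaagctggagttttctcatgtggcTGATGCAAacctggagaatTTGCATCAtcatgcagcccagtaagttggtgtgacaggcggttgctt
Asns: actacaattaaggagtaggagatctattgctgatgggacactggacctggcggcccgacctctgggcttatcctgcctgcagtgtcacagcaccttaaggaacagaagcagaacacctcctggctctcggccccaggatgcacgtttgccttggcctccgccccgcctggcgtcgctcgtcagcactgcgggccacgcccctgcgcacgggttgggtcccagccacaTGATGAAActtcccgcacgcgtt

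Windows were found for 6 of the 10 transporters, 8 windows in all because Slc38a4 has 3 starts. Slc38a1, Slc38a3, Slc7a2 and Slc7a5 had none in the table. The core TGATGNAA was present in 1 of the 8 windows, that of Slc7a11, and in 3.45% of all 32851 windows of this length. Slc7a11 held 2 matches, TGATGCAA on the plus sense of the gene beginning 66 bases before the start and TTGCATCA (the reverse complement of the same letters) beginning at 47. The Asns window held TGATGAAA beginning at 23. A half-site of the kind LRH-1 binds, CAAGGNCA, was searched on both strands and was in none of the 8 windows, against 5.53% of all windows. These searches describe letters in 250 bases and say nothing of sites outside them. Base composition differed, with 72.0% G and C upstream of Slc38a2, 64.8% for Slc1a4 and 43.2% for Slc7a11.

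Slc7a11, the cystine and glutamate exchanger, was dim. Its intensity ran from 6.27 to 9.60 (median 7.59) in WT and from 6.06 to 8.38 (median 7.25) in K289R and lay under every array's median, and no background measure is in the table to set it against. Its log2 difference was -0.11 (adjusted p = 0.698). By contrast Asns averaged 54.1 ± 15.2 in the WT arrays and 779 ± 80.4 (SD, n = 6 each) in K289R, a 14.8-fold rise (adjusted p = 5.32e-11).

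Among the other sodium-coupled carriers, Slc38a3 had the tightest values. The system N carrier ran from 2831 to 3232 (median 3097) in WT and from 2817 to 3068 (median 2889) in K289R. The ranges overlapped through WT 1 (2831) and K289R 5 (3068). The remaining WT arrays measured 3025 to 3232 and the remaining K289R arrays 2817 to 2958. Setting these arrays aside was a choice made from the values themselves, so the gap is not evidence of a difference. Without WT 1 the adjusted p was 0.516, and without K289R 5 it was 0.689. The fold of Slc38a3 was 0.950 (95% CI 0.874 to 1.03; adjusted p = 0.619). The SD of its log2 values within genotypes was 0.0547, lower than in all but 0.562% of genes. Slc38a4, the imprinted system A carrier of liver, ran from 1624 to 2178 (median 1937) in WT and from 1810 to 2035 (median 1887) in K289R. The K289R range lay wholly inside the WT range, and the fold was 0.997 (95% CI 0.896 to 1.11; adjusted p = 0.987).

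Slc38a1, a system A carrier best known from brain, was dim here, at 16.7 to 21.4 (median 18.5) in WT and 15.6 to 19.2 (median 16.5) in K289R. The groups overlapped, with 3 K289R arrays below every WT array (log2 difference -0.13, adjusted p = 0.503). A second probe set of Slc38a1, also dim, had a log2 difference of -0.013. Slc38a1, Slc38a2 and Slc38a4 follow one another on chromosome 15 in RefSeq, with no other protein-coding gene between them. Of these neighbours, the differences were -0.13, 0.36 and -0.0041.

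Slc3a2, the heavy chain that brings its light chains to the cell surface, ran from 501 to 566 (median 534) in WT and from 537 to 662 (median 579) in K289R. Its means were 534 ± 23.6 and 588 ± 51.1 (SD, n = 6 each), a 1.10-fold difference (95% CI 0.993 to 1.21; adjusted p = 0.452). The 3 K289R arrays above every WT array were 1, 2 and 3, and 2 of those (1 and 3) were the arrays with acinar transcripts. Without these 2 arrays the log2 difference was 0.10 (adjusted p = 0.741), against 0.13 with all arrays. K289R 2 was the highest array for Slc3a2, and its acinar mean of 4.25 on the log2 scale was not raised. Leaving out K289R 2 alone also gave 0.10 (adjusted p = 0.614). The part of acinar RNA in this value was not tested.

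Its light chain Slc7a5, the carrier of leucine and other large neutral amino acids, measured 55.8 to 75.7 (median 64.3) in WT and 56.7 to 67.8 (median 62.3) in K289R. All K289R values fell within the WT range (fold 0.948, 95% CI 0.837 to 1.07; adjusted p = 0.737). Slc43a1, a sodium-independent carrier of branched-chain and other large neutral amino acids, measured 47.6 to 67.3 (median 56.4) in WT and 48.8 to 68.9 (median 58.6) in K289R. The groups overlapped almost fully (fold 1.02, 95% CI 0.882 to 1.18; adjusted p = 0.930). Over the 12 arrays, Pearson's r between the heavy chain and Slc7a5, on values centred on genotype means, was -0.11 (permutation p = 0.701, adjusted p = 0.956 over 45 pairs) and Spearman's rho was -0.00 (permutation p = 1.0, adjusted p = 1.0). Pearson's r was -0.26 without WT 3 and WT 6.

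Slc7a2, the arginine carrier, varied most between mice. It ran from 294 to 541 (median 380) in WT and from 327 to 544 (median 448) in K289R, and the groups overlapped over most of this range. The means were 383 ± 89.4 and 446 ± 81.5 (SD, n = 6 each), a 1.17-fold difference (95% CI 0.949 to 1.45; adjusted p = 0.536). The SD of its log2 values within genotypes was 0.298, higher than in 96.6% of genes, where the median of all genes was 0.148. WT 1 was the highest WT array and K289R 3 the highest K289R array.

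**Figure D3:**
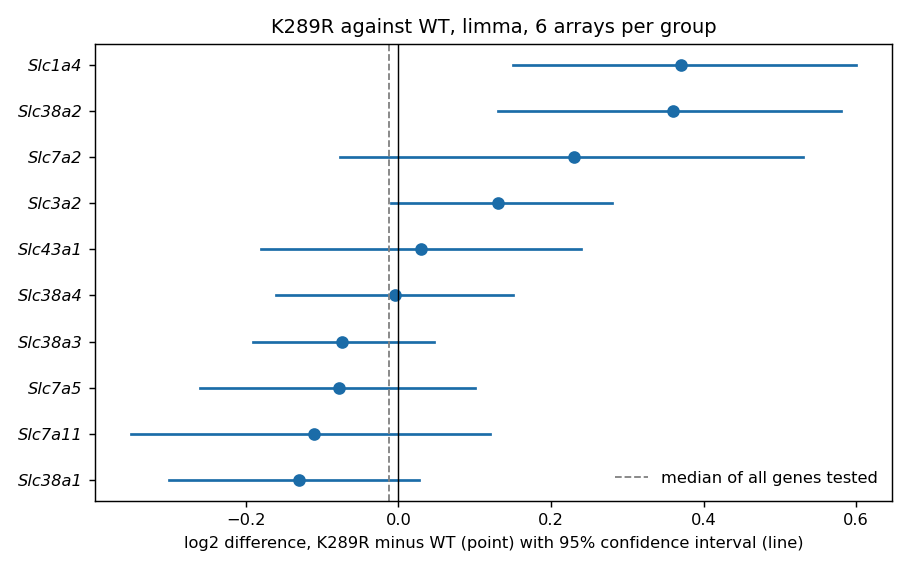
Log2 difference of K289R minus WT (point) with its 95% confidence interval (line) for each of the 10 transporters, 6 arrays per group. The intervals of Slc1a4 and Slc38a2 lie above 0 before adjustment, and those of the other 8 cross it.

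Several transporters deviated together on single arrays. On WT 1, relative to the WT mean, Slc38a2 was higher by 0.49 and Slc7a2 by 0.53 on the log2 scale, and Slc1a4 had a deviation of -0.34. On K289R 3 the same genes deviated by 0.26, 0.31 and -0.30. Those were the 2 arrays with the most skeletal muscle transcript. WT 1 also had raised acute phase transcripts, and K289R 3 raised acinar transcripts. WT 3, with acute phase values like those of WT 1, had deviations of -0.18 for Slc38a2 and -0.31 for Slc7a2. K289R 1, with acinar values near those of K289R 3, had -0.11 and -0.43.

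**Figure D4:**
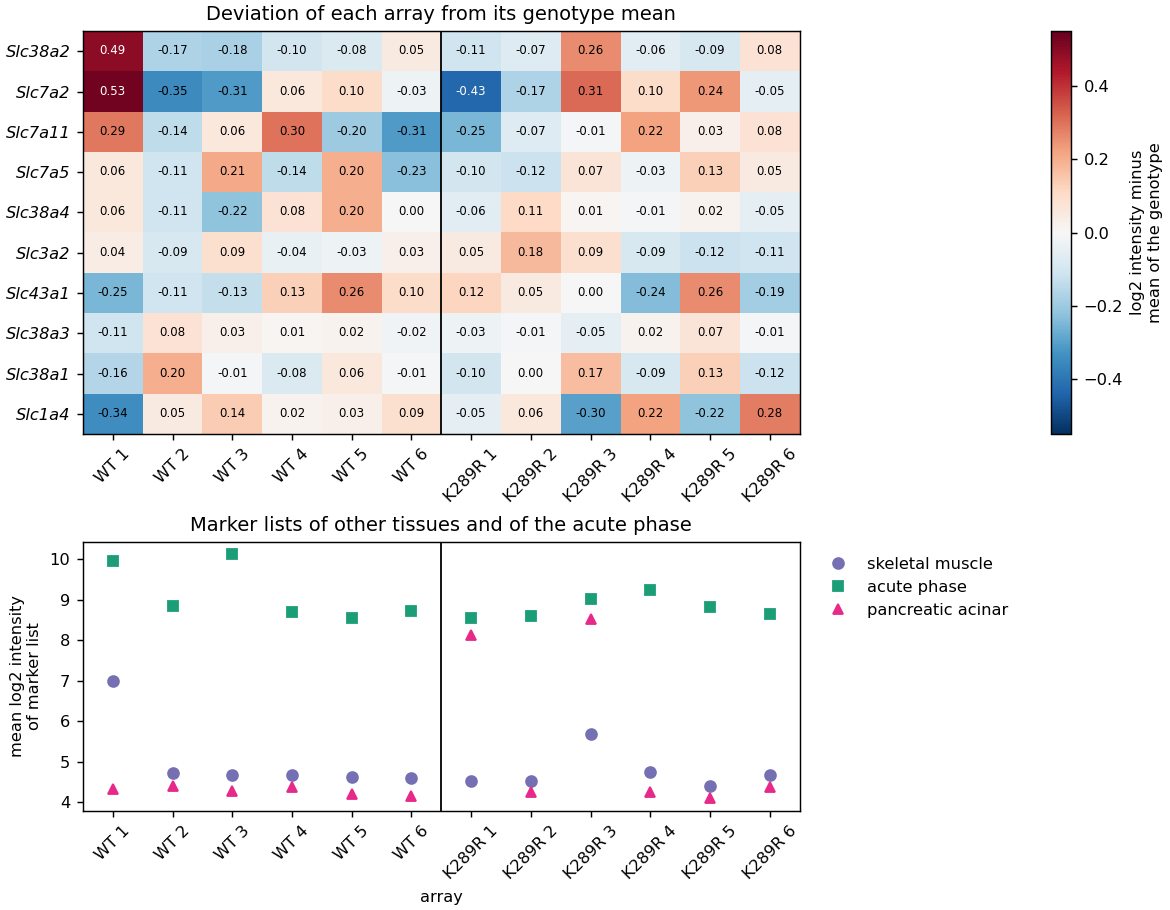
Upper panel, log2 intensity of each transporter on each array minus the mean of its genotype; lower panel, mean log2 intensity of the skeletal muscle, acute phase and pancreatic acinar marker lists on the same arrays. WT 1 and K289R 3 are high for Slc38a2, Slc7a2 and muscle transcripts and low for Slc1a4.

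Correlations between transporters were computed for all 45 pairs over the 12 arrays, on values centred on genotype means, with permutation within genotypes. No pair passed after adjustment, and 3 had an unadjusted p under 0.05. Slc38a2 and Slc38a3 gave r = -0.85 (permutation p = 0.00160, adjusted p = 0.0720) and rho = -0.69 (permutation p = 0.0196, adjusted p = 0.483). Without WT 1 and K289R 3 their r was -0.55. Slc38a2 and Slc7a2 gave r = 0.76 (permutation p = 0.00747, adjusted p = 0.168) and rho = 0.67 (permutation p = 0.0214, adjusted p = 0.483), and r = 0.40 without those arrays. Both relations rest in part on those 2 arrays. Slc7a2 and Slc1a4 gave r = -0.60 (permutation p = 0.0498, adjusted p = 0.524) and rho = -0.50 (permutation p = 0.119, adjusted p = 0.783), with r = -0.58 without WT 1 and K289R 1, the arrays farthest from the median for Slc7a2. Without WT 1 and K289R 3 it was -0.15, so this relation too rests on those 2 arrays.

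The genes most like each of 3 transporters across mice were sought among 6600 genes of moderate or high intensity. They are given as descriptions over the same 12 arrays. For Slc7a2 the closest were Fgd6 (r = 0.933, rho = 0.951), Garem1 (r = 0.926), Ip6k2 (r = 0.920), Wbp1l (r = 0.913) and Sdc4 (r = 0.911). Without WT 1 and K289R 1 these r values were 0.803 to 0.921. For Slc1a4 they were S100a1 (r = 0.854, rho = 0.902), Ppif (0.840), Amt (0.821), Pias4 (0.820) and Ccar2 (0.814), and r was 0.575 to 0.768 without WT 1 and K289R 3.

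For Slc38a2, examined after its values were seen, 3 of the 5 closest genes were skeletal muscle genes of the marker list. These were the fast troponins Tnni2 (r = 0.924) and Tnnt3 (r = 0.915) and skeletal actin Acta1 (r = 0.888), whose highest value was 672, on WT 1, against 45.1 to 69.0 on the 10 arrays other than WT 1 and K289R 3. Without those 2 arrays their r values were 0.494, 0.242 and -0.222. Cemip2 (r = 0.894) kept an r of 0.887 without them, whereas Cebpb (r = 0.893) had 0.280. The part of muscle RNA in the Slc38a2 values of WT 1 and K289R 3 was not tested, and without both arrays the genotype difference was 0.40, as given above.

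Among 43 other measured amino acid transporters of plasma membrane and lysosome, 1 rose (0.481% of all genes did) and 42 had an adjusted p over the threshold. The gene was Slc15a4, a lysosomal carrier of histidine and short peptides, which rose 1.25-fold, from 81.7 ± 5.53 to 102 ± 8.49 (SD, n = 6 each; adjusted p = 0.0493). All its K289R arrays (96.0 to 119) lay above all WT arrays (72.6 to 88.0). The call was at the threshold: of 12 fits with 1 array removed, 10 lost it, and adjusted p ran from 0.0430 to 0.123. The next by p were Slc38a8 (log2 difference -0.24), the proline carrier Slc6a20a (-0.21) and Slc3a1, the heavy chain of the cystine and dibasic amino acid carrier (-0.34), with adjusted p of 0.309, 0.310 and 0.370. The list median was -0.024 with 16 of 43 differences positive, and 0.014 with 25 positive under equal array medians, so it gives no direction.

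Of 9 mitochondrial amino acid carriers none passed, and 2 had an unadjusted p under 0.05 in opposite directions. The ornithine carrier Slc25a15, which serves the urea cycle, averaged 588 ± 36.4 in the WT arrays against 658 ± 48.5 (SD, n = 6 each) in K289R, with a log2 difference of 0.16 (adjusted p = 0.361). The glutamate carrier Slc25a22 had -0.19 (adjusted p = 0.375). Slc25a44, a carrier of branched-chain amino acids, had 0.18 (adjusted p = 0.440) and citrin (Slc25a13) 0.11 (adjusted p = 0.524). The list median was -0.038, and without WT 1 it was 0.007.

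In the ATF4 response list 2 of 34 measured genes rose, beside 0.481% of all genes, and the other 32 missed the threshold. Beside Asns this was Gpt2, an alanine aminotransferase (1.56-fold, adjusted p = 0.00367). The lipoprotein receptor Vldlr had a log2 difference of 0.42 (adjusted p = 0.0680), and cystathionine gamma-lyase (Cth) had 0.34 (adjusted p = 0.165). The groups of Vldlr only just separated, at 18.7 to 28.2 in WT and 28.2 to 35.3 in K289R. Full separation was found for 3 of the 34 genes, beside 1.24% of all genes. Before adjustment, 10 genes had a p under 0.05, each higher in K289R (6.42% of all genes were), and the list median was 0.075. A positive difference was found for 22 of the 34 (64.7%), against 46.0% of all genes. The rest were lower in K289R, down to -0.18, so the rise was not shared by the whole list. They included Atf4 itself (-0.092), Ddit3 (-0.16), Chac1 (-0.14) and Trib3 (-0.082), with adjusted p of 0.531 to 0.770. The shares with a positive difference moved with the processing. With equal array medians they were 82.4% of the list and 58.9% of all genes. With dim genes left out they were 66.7% of the 27 genes of the list that remained and 57.2% of all genes. Without K289R 1 and 3 they were 58.8% and 47.9%. The list was drawn up with earlier results of these arrays known, so its counts are not independent evidence of a direction.

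Genes of amino acid sensing and of mTORC1, the kinase complex that amino acids activate, numbered 30, and none passed. Before adjustment, 4 had a p under 0.05, each higher in K289R (6.42% of all genes were). These were Eif4ebp1, a translation repressor that mTORC1 phosphorylates (log2 difference 0.23), the sestrins Sesn2 (0.18) and Sesn1 (0.24), and Tsc2 (0.15), with adjusted p of 0.246 to 0.412. Eif4ebp1 and Sesn2 are also in the ATF4 list and were counted there. A positive difference was found for 25 of the 30 (83.3%), against 46.0% of all genes, and the median was 0.046. Both shares moved with the processing. With equal array medians the list had 96.7% and all genes 58.9%, and with quantile normalization 73.3% and 47.5%. With dim genes left out the shares were 85.2% of the 27 genes of the list that remained and 57.2% of all genes. Without K289R 5 they were 66.7% and 47.8%. This list too was drawn up with earlier results known, so its counts are not independent evidence of a direction.

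**Figure D5:**
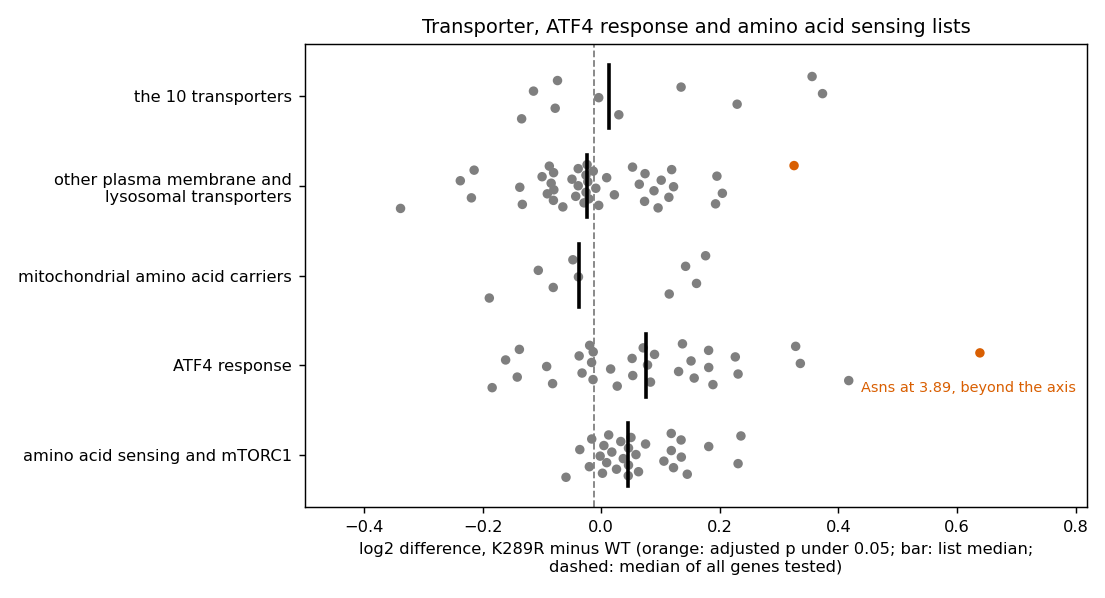
Log2 difference of K289R minus WT for each gene of the 10 transporters and of 4 related lists; black bars are list medians, the dashed line is the median of all genes tested, and orange marks an adjusted p under 0.05. Slc15a4, Gpt2 and Asns (3.89, beyond the axis) are the genes past the threshold.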

How the data were processed

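Liver RNA of 12 mice was measured on Affymetrix gene arrays. The deposited values are intensities on a linear scale, 1 per probe set and array, made with Affymetrix Expression Console per the submitters' processing notes. No label or header names the summarization, background correction or normalization. The table had 35556 rows, of which 21789 had 1 gene symbol in the platform annotation; rows with several (1621) or none (12146) were left out. Symbols were updated by gene ID (21698 rows matched RefSeq, GRCm38.p6). A gene with over 1 probe set was represented by the brightest. Intensities were taken to log2 without an offset and compared by limma 3.58.1 in R 4.3.3 (lmFit, eBayes), 6 K289R against 6 WT arrays, without covariates, with Benjamini-Hochberg adjustment over 19938 genes. The labels give no slide or scan date. Means ± SD are of linear intensities, and fold changes come from mean log2 values. Precision is limited by there being 6 arrays a group, and levels of different probe sets are not comparable.

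The transporters, gene lists and left-out pairs of arrays were chosen with earlier results of these data known. The text names all 10 transporters, the 4 genes of each related list with the smallest p, and for the transporter with the smallest p and the one with the largest spread the 5 genes with the highest r, predicted genes passed over. Atf4, Ddit3, Chac1 and Trib3 were named besides these. Marker lists covered 10 cell types or states. Correlations of pairs used 100000 permutations within genotypes. Alternatives were other array scalings, an offset of 16, dim genes left out, the mean of probe sets, all rows, a trended robust variance, array weights, a replicate block and arrays left out. Replicate numbers name different mice; correlations of same-numbered deviations ran from -0.231 to 0.233, so no block was used. The fit was tested on simulated data. Figures used matplotlib 3.10.9.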

Additional observations from a re-analysis of the deposited data

Results flagged for a closer look

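In each group of 6 arrays, the gap from the highest or lowest array to its neighbour was taken. It was set against the range of the group on the log2 scale. The genes were the 10 transporters and the 4 genes of each related list with the smallest p. Of 52 such groups 3 were marked, where chance marks about 5% of independent groups. Of the 20 groups of the transporters 2 were marked, both on WT 1. The groups share arrays and are not independent, so the count cannot be set firmly against chance. Slc38a2 on WT 1 was 714, against 449 to 528 on the other 5 WT arrays, a gap of 0.647 of the range. Slc1a4 on WT 1 was 32.1, against 41.2 to 44.7 on the others, a gap of 0.754 of the range. Slc15a4 on K289R 5 was 119, against 96.0 to 102 on the others, a gap of 0.704 of the range.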

How the results depend on the processing

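Of 248 values of the 10 transporters under 25 alternatives, 231 kept both direction and side of the threshold, 3 newly passed (Slc38a2) and 14 changed sign. The count of transporters that passed was 0 with all arrays, 0 to 1 over the 12 fits that left out 1 array, and 1 without WT 1 and 3 and without WT 1 and K289R 3; the array that made the difference was WT 1. The count over all genes was 114, ran from 81 to 159 over fits without 1 array, and was 75 without K289R 1 and 3 and 65 without all 4 arrays, where fewer arrays were fitted. The 1 call among the other transporters, Slc15a4, became 0 under quantile normalization, with all rows of the table tested, with the replicate block, and without each pair or set of arrays left out together; over fits without 1 array it was 0 to 1. The 14 sign changes were in Slc38a4, Slc43a1 and Slc7a11, with differences of -0.0041, 0.03 and -0.11 with all arrays. Slc38a4 was 0.03 with equal array medians, 0.01 without K289R 1 and 3 and 0.01 without WT 1 and K289R 3, and ran from -0.05 to 0.04 over fits without 1 array. Slc43a1 was -0.06 without WT 1 and 3, -0.09 without all 4 arrays and -0.02 without WT 1 and K289R 3, and ran from -0.02 to 0.08 over fits without 1 array. Slc7a11 was 0.04 without all 4 arrays. With the replicate number as a block, Slc38a2 had an adjusted p = 0.232, Slc1a4 0.167 and Vldlr 0.0357; of the 6 numbers, 1 had its best correlation with its own number. Vldlr also passed with equal medians, quantile normalization, array weights, without WT 1 and without WT 1 and 3. Signal limits Slc38a1 and Slc7a11, 2 of 10 transporters, which lay below every array median.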
